A study of Mus musculus with 32 samples.

Results

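Between 12 and 24 h of Ebf1-ER activity, Ebf1-deficient fetal liver progenitors gained transcripts of pre-B-cell receptor chains and of many genes of mitosis, and lost transcripts of Myc and of part of the genes of ribosome assembly and of the IL-7 response. The comparison set the 2 arrays taken at 24 h against the 2 taken at 12 h, 4 of the 32 arrays of the series, and covered every probe set that carries 1 gene symbol. The spread was pooled over all 8 arrays of the time course, which also holds 2 arrays each at 0 h and 6 h. All 8 arrays came from Ebf1-/- fetal liver cells of C57BL/6J embryos at E14.5. These cells had been expanded on OP9 stromal cells with KIT ligand, FLT3 ligand and IL-7 at 10 ng/mL each. They were infected with the retrovirus pMIG-Ebf1-ER, which carries Ebf1 joined to an estrogen receptor part together with GFP, and sorted for GFP. The 6, 12 and 24 h groups received 0.1 uM 4-hydroxytamoxifen, the ligand that lets such a fusion act in the nucleus, for that time before 500000 cells were taken for RNA. Vector-only or untreated cells at 12 or 24 h were not analysed here, so duration of Ebf1-ER activity, of tamoxifen exposure and of culture cannot be told apart between these groups. The labels do not say whether the 2 arrays of a group came from separate cultures, so p-values reflect differences among these samples alone, possibly technical ones.

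Ebf1 is a transcription factor that commits lymphoid progenitors to the B lineage together with Tcf3, Foxo1 and Pax5. Among its known targets are the surrogate light chain genes Igll1 and Vpreb1 and the signalling chains Cd79a and Cd79b, whose products join a rearranged heavy chain to form the pre-B-cell receptor. Progenitors at this stage depend on IL-7, which acts through STAT5 to sustain survival and division, while the recombinase genes Rag1 and Rag2 are most active in cells that have slowed their cycle.

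The deposited values were log2 intensities centred on the median of the 8 arrays for each probe set, so they show differences between arrays and no level of one gene against another. A value of 0 is the probe set's own middle value over the time course, and a difference of 1 is a 2-fold change. For each gene the most variable of its probe sets, judged on the 8 arrays, was used, and the gene was called where the limma adjusted p, taken over all 34945 probe sets with 1 symbol, was under 0.05. In these bulk samples fewer cells of a type and less RNA per cell cannot be told apart. Array medians lay between -0.01 and 0.01, and the median absolute difference between replicates was 0.104 at both 12 h and 24 h. On 24 h array 2, the 18 hybridization control probe sets read between -10.7 and -4.12, far below the other 7 arrays, while its 24 poly-A control probe sets read between -0.04 and 0.33, within the range of the other arrays. These controls entered no test. Fits without that array leave a single array at 24 h, so they cannot tell its own part from the loss of a replicate.

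Between the groups 1202 probe sets (3.44%) were called. Of 18193 genes, 777 (4.27%) were called between 12 and 24 h. Of these, 464 (2.55%) rose and 313 (1.72%) fell, and 97 (0.533%) differed by at least 2-fold, with 62 higher and 35 lower. In the preceding interval, from 6 to 12 h, 465 genes (2.56%) were called. The smallest called difference was 0.375 on the log2 scale. For 482 of the called genes the array holds 2 or more probe sets, and for 160 of them at least 2 were called. Most calls needed all 4 arrays: without 12 h array 1, 12 h array 2, 24 h array 1 or 24 h array 2 the count of called genes was 52, 56, 84 and 40. Of the 88 called genes named here, 18 were called in each of these 4 fits, namely Myc, Igll1, Cd24a, Slc5a9, F13a1, A930003A15Rik, Spata6, Ccnb2, Ccng2, Wfdc17, Pim2, Hbegf, Ccl3, Mpo, Ctr9, Lrmda, Pttg1 and Mzb1. The other named genes were not called in at least 1 of them, while their direction was kept.

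The choice of probe set also mattered. With all probe sets of a gene averaged, Foxo1 (0.39), Igll1 (0.95), Slc5a9 (1.52), Spata6 (0.92), Dmd (-0.64), Spopl (-0.50), Trp53inp1 (0.63), Gart (-0.31) and Stard4 (0.43) stayed called with a difference smaller by over 1.5 times. Another 11 named genes were not called with averaging, and each is given with its averaged value where it is described.

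**Figure D1:**
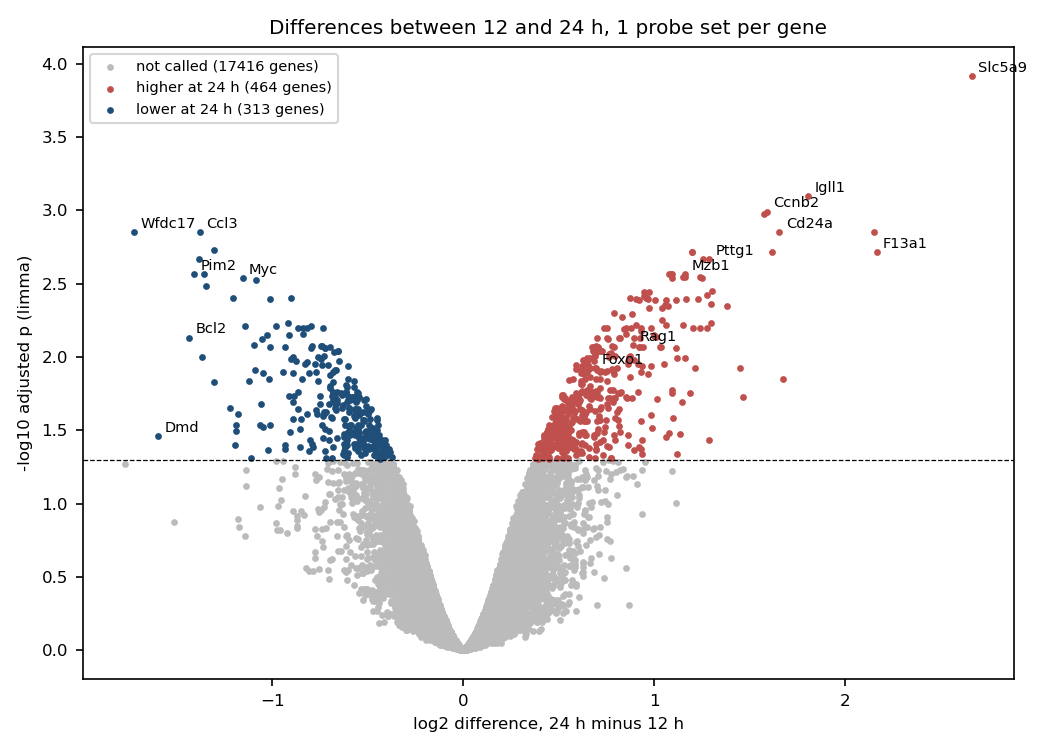
Each point is 1 gene, with the log2 difference between 24 and 12 h on the horizontal axis and the negative log10 of the limma adjusted p on the vertical axis, and the dashed line marks an adjusted p of 0.05. The 464 genes called higher are red and the 313 called lower are blue, with Slc5a9 at the upper right and Wfdc17 at the upper left.

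Most chains of the pre-B-cell receptor rose. Of the 5 measured genes of the surrogate light chain and of the receptor's signalling chains, 4 rose and none fell. Over all genes 2.55% rose and 1.72% fell. The list's median difference was 0.75 against 0.02 over all genes. Igll1 and Foxo1 are shown with the 300 bases around their start site in GRCm38.p6, from RefSeq, because both rose and both hold a match to the core letters of the known Ebf1 motif, in capitals. The core CCCNNGGG, searched for on both strands, occurs in 19.7% of the promoters of the 14452 measured genes with one in the table, in 20.5% of the promoters of genes called higher and in 23.1% of those of genes called lower. The Igll1 window (chr16:16863936-16864235, minus strand) holds it at -231 relative to the start site, and the Foxo1 window (chr3:52268087-52268386, plus strand) at -91. The windows of Vpreb1, Cd79a, Rag1, Rag2 and Pim2, also searched, hold no exact match, and near matches were not searched for. Of the receptor list 1 of 4 genes with a promoter in the table held one (25.0%). These are matches of letters and no measure of binding.
Igll1: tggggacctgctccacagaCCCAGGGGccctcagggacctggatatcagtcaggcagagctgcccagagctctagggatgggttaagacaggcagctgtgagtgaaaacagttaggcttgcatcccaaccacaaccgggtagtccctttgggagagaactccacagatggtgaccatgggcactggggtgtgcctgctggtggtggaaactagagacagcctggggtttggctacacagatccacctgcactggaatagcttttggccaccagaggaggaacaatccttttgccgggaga
Foxo1: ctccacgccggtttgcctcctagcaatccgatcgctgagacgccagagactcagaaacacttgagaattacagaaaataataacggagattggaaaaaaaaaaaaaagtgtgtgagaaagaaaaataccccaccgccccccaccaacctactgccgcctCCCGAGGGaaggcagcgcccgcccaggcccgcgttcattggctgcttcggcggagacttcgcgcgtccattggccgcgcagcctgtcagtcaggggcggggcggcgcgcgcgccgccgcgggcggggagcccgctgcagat

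Igll1, which encodes the lambda5 part of the surrogate light chain, read 0.56 and 0.47 at 12 h and 2.29 and 2.35 at 24 h. Both 24 h arrays lay above all 6 earlier arrays, which ran from -1.29 to 0.56 and stepped upward at each time. The difference was 1.81 ± 0.09 (SE), 3.5-fold, with a limma adjusted p of 0.000796. A second probe set of Igll1 differed by 0.08 and was not called. Vpreb1, which encodes the other surrogate light chain protein, read 0.13 and 0.38 at 12 h and 0.88 and 0.93 at 24 h. Its groups did not overlap, as held for 9332 of the 18193 genes. Vpreb1 rose by 0.65 ± 0.11 (SE; limma adjusted p = 0.0272).

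Cd79b, the signal-transducing Ig beta chain, read -0.30 and -0.39 at 12 h and 0.52 and 0.54 at 24 h. Its partner Cd79a, the Ig alpha chain, read -0.28 and -0.38 at 12 h and 0.29 and 0.56 at 24 h. Neither had moved steadily before: the 12 h arrays sat at the bottom of the course for Cd79a, and for Cd79b they lay between the 0 h values. Cd79b rose by 0.88 ± 0.12 (SE; limma adjusted p = 0.0138) and Cd79a by 0.75 ± 0.15 (SE; limma adjusted p = 0.0404). Vpreb3, which binds nascent immunoglobulin chains inside the cell, read -0.08 and 0.00 at 12 h and -0.21 and 0.07 at 24 h, with overlapping groups and a limma adjusted p of 0.949. In the fits that left out 1 of the 4 arrays, Igll1 alone of the 5 was called, while the median of the list stayed between 0.625 and 0.887.

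The transcription factors that specify the B lineage changed little as a group. Of 20 measured, with a median of 0.11, 1 rose and 1 fell, against 2.55% and 1.72% of all genes. Foxo1, which drives early B-cell and recombinase genes, read 0.00 on both 12 h arrays and 0.60 and 0.79 at 24 h. It stood above all earlier arrays and rose by 0.69 ± 0.09 (SE; limma adjusted p = 0.0119), and 3 of its 4 probe sets were called higher. Irf8, a factor shared by B cells and myeloid cells, read -0.32 and -0.34 at 12 h and -1.03 and -0.82 at 24 h. Irf8 fell at each time of the course and was lower by 0.59 at 24 h than at 12 h (SE 0.105, limma adjusted p = 0.029). Foxo1 was not called without any 1 of the 4 arrays, with limma adjusted p up to 0.114.

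Ebf1 itself, the product of the deleted locus and of the vector, read -0.16 and -0.13 at 12 h and -0.09 and -0.06 at 24 h on its most variable probe set. None of its 5 probe sets was called, with differences from -0.17 to 0.14, and where they lie relative to the deletion is not given in the sources used here, so they check neither the knockout nor the fusion. Pax5, which fixes B-lineage identity, overlapped between the groups and differed by 0.02 ± 0.13 (SE; limma adjusted p = 0.963). Tcf3, the E2A gene, differed by 0.04 ± 0.09 (SE; limma adjusted p = 0.873). The kinases, adaptors and coreceptors that act below the pre-B-cell receptor held no called gene among 16 measured by limma, 3 of them with an unadjusted p under 0.05. Blnk, the adaptor that couples the receptor to calcium signalling, was among those not called, with a difference of 0.35 ± 0.16 (SE; limma adjusted p = 0.312).

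Surface markers of the pro-B and pre-B stages gave 3 higher and none lower of 16, against 2.55% and 1.72% of all genes. The list's median was 0.21, with 9 above 0 and 7 below 0, down to -0.47. With probe sets averaged 5 were called higher and 2 lower. Cd24a, the heat-stable antigen that marks the pro-B to pre-B steps, read 0.09 and 0.34 at 12 h and 1.87 on both 24 h arrays. The earlier arrays reached at most 0.34, and Cd24a rose by 1.66 ± 0.10 (SE), 3.15-fold, with a limma adjusted p of 0.00141 and 2 of 3 probe sets called. Bst1, the BP-3 antigen of early B-lineage cells, read 0.00 on both 12 h arrays and 1.02 and 0.62 at 24 h. Of its 2 probe sets 1 was called. Cd93, the AA4.1 antigen of progenitors, rose by 0.44 ± 0.09 (SE; limma adjusted p = 0.0425), with 2 of 5 probe sets called. At 24 h it read 0.26 and 0.19, far below the 1.75 and 1.89 of the 0 h arrays. Il7r, the IL-7 receptor alpha chain, read -0.28 and -0.21 at 12 h and 0.17 and 0.39 at 24 h, after 1.27 and 1.77 at 0 h. Its groups did not overlap, but the difference of 0.53 ± 0.16 (SE) gave a limma adjusted p of 0.134.

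The recombinase genes rose from the low values they held at 6 and 12 h. Of 12 measured genes of V(D)J recombination and end joining, 3 rose and 1 fell, against 2.55% and 1.72% of all genes. Rag1, the catalytic recombinase subunit, read -0.45 and -0.40 at 12 h and 0.53 and 0.40 at 24 h, and rose by 0.89 ± 0.10 (SE; limma adjusted p = 0.00826). Rag2, its partner, read -0.31 and -0.27 at 12 h and 0.52 and 0.64 at 24 h, and rose by 0.87 ± 0.11 (SE; limma adjusted p = 0.01). Before tamoxifen Rag1 had read 0.69 and 0.93, above its 24 h values, while Rag2 had read 0.27 and 0.51, below them. Xrcc6, the Ku70 end-binding protein, rose by 0.62, and Prkdc, the kinase that Ku recruits, fell by 0.68 (SE 0.102, limma adjusted p = 0.0175). Dntt, the terminal transferase that adds bases at joints, read -0.39 and -0.09 at 12 h and -0.17 and -0.23 at 24 h. Its groups overlapped and it was not called (limma adjusted p = 0.92), after 2.97 and 3.26 at 0 h.

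**Figure D2:**
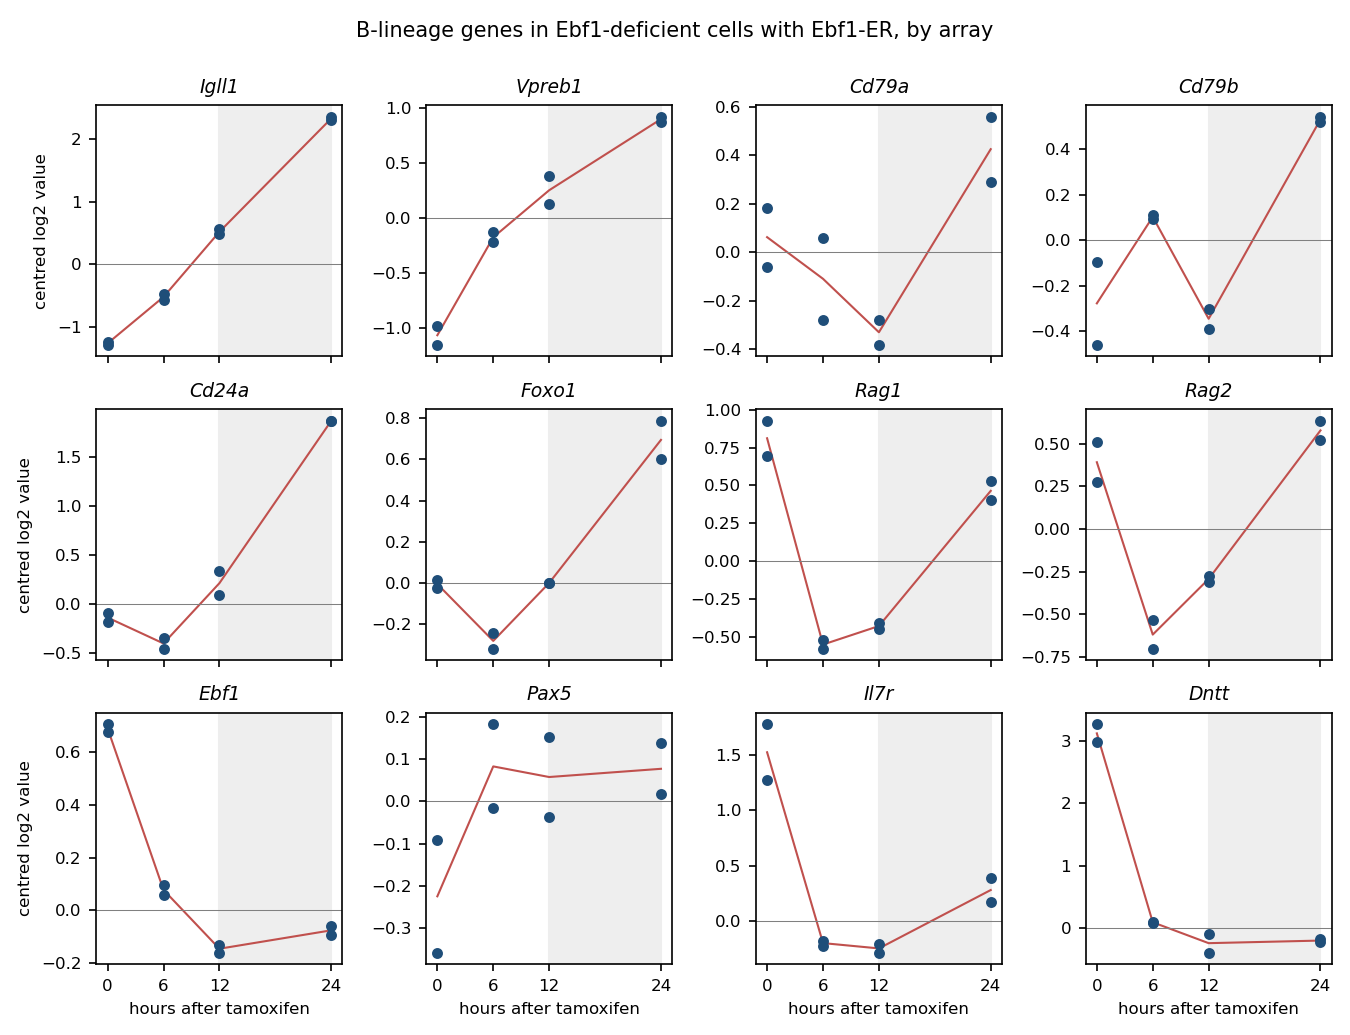
Each panel plots the centred log2 value of 1 gene on the 8 arrays (points, 2 per time) and the mean per time (line) against hours after tamoxifen, with 12 to 24 h shaded and a separate vertical scale per panel. Igll1 stepped up at each time, Cd24a and Foxo1 stood highest at 24 h, Rag1 and Rag2 rose after low values at 6 and 12 h, and Ebf1, Pax5 and Dntt did not separate beyond the test's threshold between 12 and 24 h.

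Many genes of mitosis rose. Of 53 measured genes of the spindle, kinetochore and condensin, 27 rose and none fell, against 2.55% and 1.72% of all genes. Of the 53, 51 had a difference above 0, with a median of 0.50. These genes act in the last part of the cell cycle, from chromosome condensation to sister separation. The promoters of Ccnb2 and Cdc20 are printed from RefSeq in GRCm38.p6 because both rose and hold the letters TTTGAA of the cell cycle homology region, in capitals, an element known from promoters of late cell cycle genes. The Ccnb2 window is chr9:70421505-70421804 and the Cdc20 window chr4:118437294-118437593, both on the minus strand. The Ccnb2 window holds 2 matches, at -167 and at 4 relative to the start site, and the Cdc20 window 1 match at -18. They also hold 3 and 2 copies of CCAAT, the other element searched for. The windows of Nusap1 and Pttg1, which also rose and were also searched, hold no TTTGAA.
Ccnb2: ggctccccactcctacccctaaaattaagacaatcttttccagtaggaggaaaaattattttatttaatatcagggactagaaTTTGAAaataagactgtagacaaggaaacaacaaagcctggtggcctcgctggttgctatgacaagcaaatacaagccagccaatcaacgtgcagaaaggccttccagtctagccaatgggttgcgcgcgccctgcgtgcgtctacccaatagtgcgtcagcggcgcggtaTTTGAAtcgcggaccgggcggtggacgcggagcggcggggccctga
Cdc20: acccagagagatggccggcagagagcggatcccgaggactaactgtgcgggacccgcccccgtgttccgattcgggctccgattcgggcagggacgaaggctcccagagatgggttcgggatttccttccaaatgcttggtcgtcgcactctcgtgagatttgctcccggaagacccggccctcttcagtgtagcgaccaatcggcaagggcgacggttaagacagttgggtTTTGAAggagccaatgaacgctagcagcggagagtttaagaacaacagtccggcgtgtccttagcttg

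Searched on both strands, TTTGAA occurred in 34 of the 45 mitotic genes with a promoter in the table (75.6%), against 15.7% of measured genes. Of the mitotic genes called higher, 16 of 24 with a promoter held it (66.7%). Among all genes called higher the share was 23.2% and among those called lower 14.0%. These shares describe the list, whose members were chosen for their function in mitosis, and no match is taken for a site.

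Ccnb2, cyclin B2, which activates Cdk1 for entry into mitosis, read -0.67 and -0.74 at 12 h and 0.89 and 0.88 at 24 h. It had read 0.73 and 0.67 at 0 h, so the 24 h values lay above the starting values and the 6 and 12 h values far below. The rise was 1.59 ± 0.08 (SE), 3.02-fold, with a limma adjusted p of 0.00102. Pttg1, securin, which holds back separation of sister chromatids, read -0.31 on both 12 h arrays and 1.01 and 0.95 at 24 h. It rose by 1.29 ± 0.09 (SE; limma adjusted p = 0.00216), with 2 of 3 probe sets called. Nusap1, a microtubule-binding spindle protein, read -0.19 on both 12 h arrays and 0.84 and 0.93 at 24 h, after -1.30 and -1.36 at 6 h.

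Among the other members that rose were the kinesin Kif2c by 0.93, the phosphatase Cdc25c by 0.90, the anaphase activator Cdc20 by 0.85, the centromeric histone Cenpa by 0.83, the kinase Plk1 by 0.73 and the kinase Aurka by 0.66. Cdk1, with a difference of 0.25, Aurkb, with 0.31, and Top2a, with -0.09, were not called. Over the first 6 h, 32 of the 53 genes had fallen and 2 had risen, where over all genes 16.6% fell and 18.9% rose. Without any 1 of the 4 arrays, 2 or 3 of the 53 were called, between 40 and 44 had an unadjusted p under 0.05, and the median stayed between 0.473 and 0.522. A separate experiment compared Ebf1-Eng, a fusion of Ebf1 with the Engrailed repressor part, with the empty vector pMIG in the pre-B-cell line 230238, in 3 arrays each. There 24 of these 27 mitotic genes were lower with Ebf1-Eng, and none higher, where over all genes 5.27% were lower and 6.85% higher. The mitotic genes not called in the time course were not counted in that experiment. Whether the lower values with Ebf1-Eng belong to the risen genes or to the whole mitotic list was therefore not tested.

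Genes of DNA replication gave no call. None of the 43 measured genes of licensing and of the fork was called by limma, 1 of them had an unadjusted p under 0.05, and their median was 0.07. This list had risen broadly in the first 6 h, when 39 of the 43 were higher, against 18.9% of all genes. Of the nucleotide synthesis genes, 4 of 20 fell and none rose, against 1.72% and 2.55% of all genes. Shmt1, a folate enzyme that supplies 1-carbon units, read 0.57 and 0.50 at 12 h and -0.16 and -0.17 at 24 h. It had read -2.70 and -2.63 at 0 h, so the fall of 0.70 took back a small part of the earlier rise (SE 0.0834, limma adjusted p = 0.00851). Dhodh, of pyrimidine synthesis, fell by 0.49 and Gart, of purine synthesis, by 0.46. None of the 20 was called by limma with any 1 of the 4 arrays left out, and between 7 and 10 had an unadjusted p under 0.05. Ccnd2 and Ccnd3, the D-type cyclins of early B cells, were not called, with differences of -0.42 ± 0.12 and -0.17 ± 0.16 (SE).

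Of 20 measured cyclin-dependent kinase inhibitors, Trp53 partners and p53 targets, 4 rose and 1 fell, against 2.55% and 1.72% of all genes. The other 15 were not called, and the list's median was 0.12. Trp53inp1, a p53-induced stress protein, read -0.87 and -0.91 at 12 h and 0.08 and 0.07 at 24 h. It had fallen in both earlier intervals, from 1.66 and 1.73 at 0 h, and then rose by 0.96 ± 0.09 (SE; limma adjusted p = 0.00394). A second probe set of it differed by 0.29 and was not called. Cdkn2c, the inhibitor p18, rose by 0.81 ± 0.14 (SE; limma adjusted p = 0.027), and Cdkn2d, the inhibitor p19, by 0.72 ± 0.10 (SE; limma adjusted p = 0.0125). In the fits that left out 1 of the 4 arrays, 0 or 1 of the 20 was called by limma, and between 6 and 8 had an unadjusted p under 0.05. Ccng2, an atypical cyclin outside that list that is linked to cell cycle arrest, read -0.97 and -1.0 at 12 h and 0.57 and 0.61 at 24 h, a rise of 1.58 ± 0.09 (SE; limma adjusted p = 0.00106) on both of its probe sets. Btg2, an antiproliferative gene and the 1 called of 8 in the BTG, TOB and Gadd45 families, rose by 0.59 ± 0.09 (SE; limma adjusted p = 0.0177) from -0.56 and -0.65, and stayed far below the 3.12 and 3.00 of the 0 h arrays.

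In the Myc, Max and Mxd network, Myc and Mycn fell and 3 genes of the opposing Mxd family rose, of 12 measured. The shares over all genes were 1.72% lower and 2.55% higher. Myc, the transcription factor of growth and ribosome production, read 0.18 and 0.03 at 12 h and -1.04 and -1.06 at 24 h. The 6 earlier arrays spanned only -0.21 to 0.18, so the fall appeared after 12 h. It amounted to 1.15 on the log2 scale (SE 0.0964, 2.23-fold, limma adjusted p = 0.00288) on the single Myc probe set. Mycn fell by 0.57 (SE 0.113, limma adjusted p = 0.0394). Mxd3 rose by 0.86 ± 0.17 (SE; limma adjusted p = 0.0401) and Mxd1 by 0.57 ± 0.10 (SE; limma adjusted p = 0.0261), and Mxd4 by 0.52. With all 3 probe sets averaged Mxd1 differed by 0.32 and was not called (limma adjusted p = 0.112). In each fit that left out 1 of the 4 arrays, Myc alone of the 12 was called.

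Part of the ribosome assembly genes fell. Of 38 measured genes of ribosome biogenesis and RNA polymerase I, 13 fell and none rose, against 1.72% and 2.55% of all genes. In the list 34 were below 0, with a median of -0.39. Rrp1b, an rRNA processing factor, read 0.57 and 0.50 at 12 h and -0.31 and -0.24 at 24 h. It fell by 0.82 (SE 0.0885, limma adjusted p = 0.00633) and remained far above the -2.52 and -2.39 of the 0 h arrays. Polr1b, the second largest subunit of RNA polymerase I, fell by 0.67 (SE 0.106, limma adjusted p = 0.0207), and Rrp12, which acts in export of ribosomal subunits, by 0.65 (SE 0.0846, limma adjusted p = 0.0107). All 38 genes had risen in the first 6 h, with a median of 1.96, where 18.9% of all genes rose. Without any 1 of the 4 arrays none was called by limma, between 23 and 26 had an unadjusted p under 0.05, and the median stayed between -0.43 and -0.36.

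The promoter of Nop2, an rRNA methyltransferase gene that fell by 0.61, is printed from RefSeq in GRCm38.p6 as an example that holds the E-box CACGTG, in capitals, the sequence that Myc with Max is known to bind. The window is chr6:125131633-125131932 on the plus strand, with the match at -60. The windows of Rrp1b and Rrp9, which also fell and were also searched, hold no match.
Nop2: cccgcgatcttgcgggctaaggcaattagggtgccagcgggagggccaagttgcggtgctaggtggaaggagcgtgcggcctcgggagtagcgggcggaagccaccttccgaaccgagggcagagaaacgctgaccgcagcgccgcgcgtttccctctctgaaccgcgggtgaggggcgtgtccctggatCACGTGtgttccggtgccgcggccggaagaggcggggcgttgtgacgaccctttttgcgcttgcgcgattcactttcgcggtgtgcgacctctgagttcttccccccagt

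CACGTG, which reads the same on both strands, occurred in 20.2% of the 242 promoters of genes called lower, in 9.29% of the 366 of genes called higher and in 10.2% of those of all measured genes. Within the ribosome list it occurred in 7 of 33 promoters (21.2%), and in those of Nop2, Wdr43 and Utp4 among the 11 called lower with a promoter in the table. No match is taken for a site, and a part of Myc in these falls was not tested. In the polyamine pathway 1 of 9 measured genes fell and none rose, against 1.72% and 2.55% of all genes. That gene, Srm, spermidine synthase, read 0.46 and 0.49 at 12 h and -0.20 and -0.18 at 24 h, after -2.91 and -3.17 at 0 h. Of 28 genes of amino acid supply 2 fell and none rose, with 15 above 0: the glutamine carrier Slc1a5 fell by 0.68 (SE 0.094, limma adjusted p = 0.0127) and the arginine carrier Slc7a1 by 0.48 (SE 0.0904, limma adjusted p = 0.0343). With its 3 probe sets averaged Slc7a1 differed by -0.33 and was not called (limma adjusted p = 0.0524). Of 22 genes of glucose transport and glycolysis, hexokinase 2, Hk2, alone was called, lower by 0.55 (SE 0.0867, limma adjusted p = 0.0195), with 10 above 0. No gene of the respiratory chain (31 measured) and none of the heat shock genes (21 measured) was called by limma, with 3 in each list at an unadjusted p under 0.05.

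Of 18 measured genes of the IL-7 receptor, STAT5 and their targets, 5 fell and 1 rose, against 1.72% and 2.55% of all genes. The other 12 were not called, and the list's median was -0.22. Pim2, a survival kinase, read 0.48 and 0.38 at 12 h and -0.95 and -1.01 at 24 h. The 24 h arrays were the lowest of the course, below the -0.66 and -0.38 of 0 h, and the fall was 1.41 (SE 0.111, 2.65-fold, limma adjusted p = 0.00271). Cish, a feedback inhibitor that STAT5 induces, read 0.32 and 0.39 at 12 h and -0.32 and -0.30 at 24 h, lower by 0.67 (SE 0.0909, limma adjusted p = 0.0122). Socs2, another feedback inhibitor, fell by 0.60, and Crlf2, the receptor chain for TSLP, by 0.39. Bcl6, a repressor that STAT5 is known to hold down in pre-B cells, rose by 0.62.

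Bcl2, the survival protein, read 0.09 and -0.09 at 12 h and -1.35 and -1.52 at 24 h on its most variable probe set. It fell there by 1.44 (SE 0.163, 2.71-fold, limma adjusted p = 0.00737), and all 5 of its probe sets were called lower, by 0.78 to 1.44. The 5 probe sets differed in their earlier course: 3 had been lower at 0 h than at 6 h and 2 had been higher. Of 14 measured genes of the BCL2 family, Bcl2 was the only one called by the test. Without 12 h array 1, 12 h array 2, 24 h array 1 or 24 h array 2, the list of IL-7 and STAT5 genes held 1, 1, 2 and 1 genes called lower and none higher.

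Lipid genes gave 5 higher and none lower of 22 measured for cholesterol synthesis and uptake, against 2.55% and 1.72% of all genes. The list's median was 0.33, with 19 above 0. Stard4, a sterol carrier, read -0.01 and 0.11 at 12 h and 0.90 and 0.89 at 24 h, and rose by 0.84 ± 0.09 (SE; limma adjusted p = 0.00644). Its 6 earlier arrays lay between -0.13 and 0.11. Scd2, a fatty acid desaturase, rose by 0.75 ± 0.13 (SE; limma adjusted p = 0.027) on all 3 of its probe sets, and Fdps, which makes farnesyl diphosphate, by 0.73 ± 0.14 (SE; limma adjusted p = 0.0369) on 1 of 2. With both probe sets averaged Fdps differed by 0.36 and was not called (limma adjusted p = 0.135). Without any 1 of the 4 arrays none of the 22 was called by limma, between 9 and 12 had an unadjusted p under 0.05, and the median stayed between 0.327 and 0.385.

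**Figure D3:**
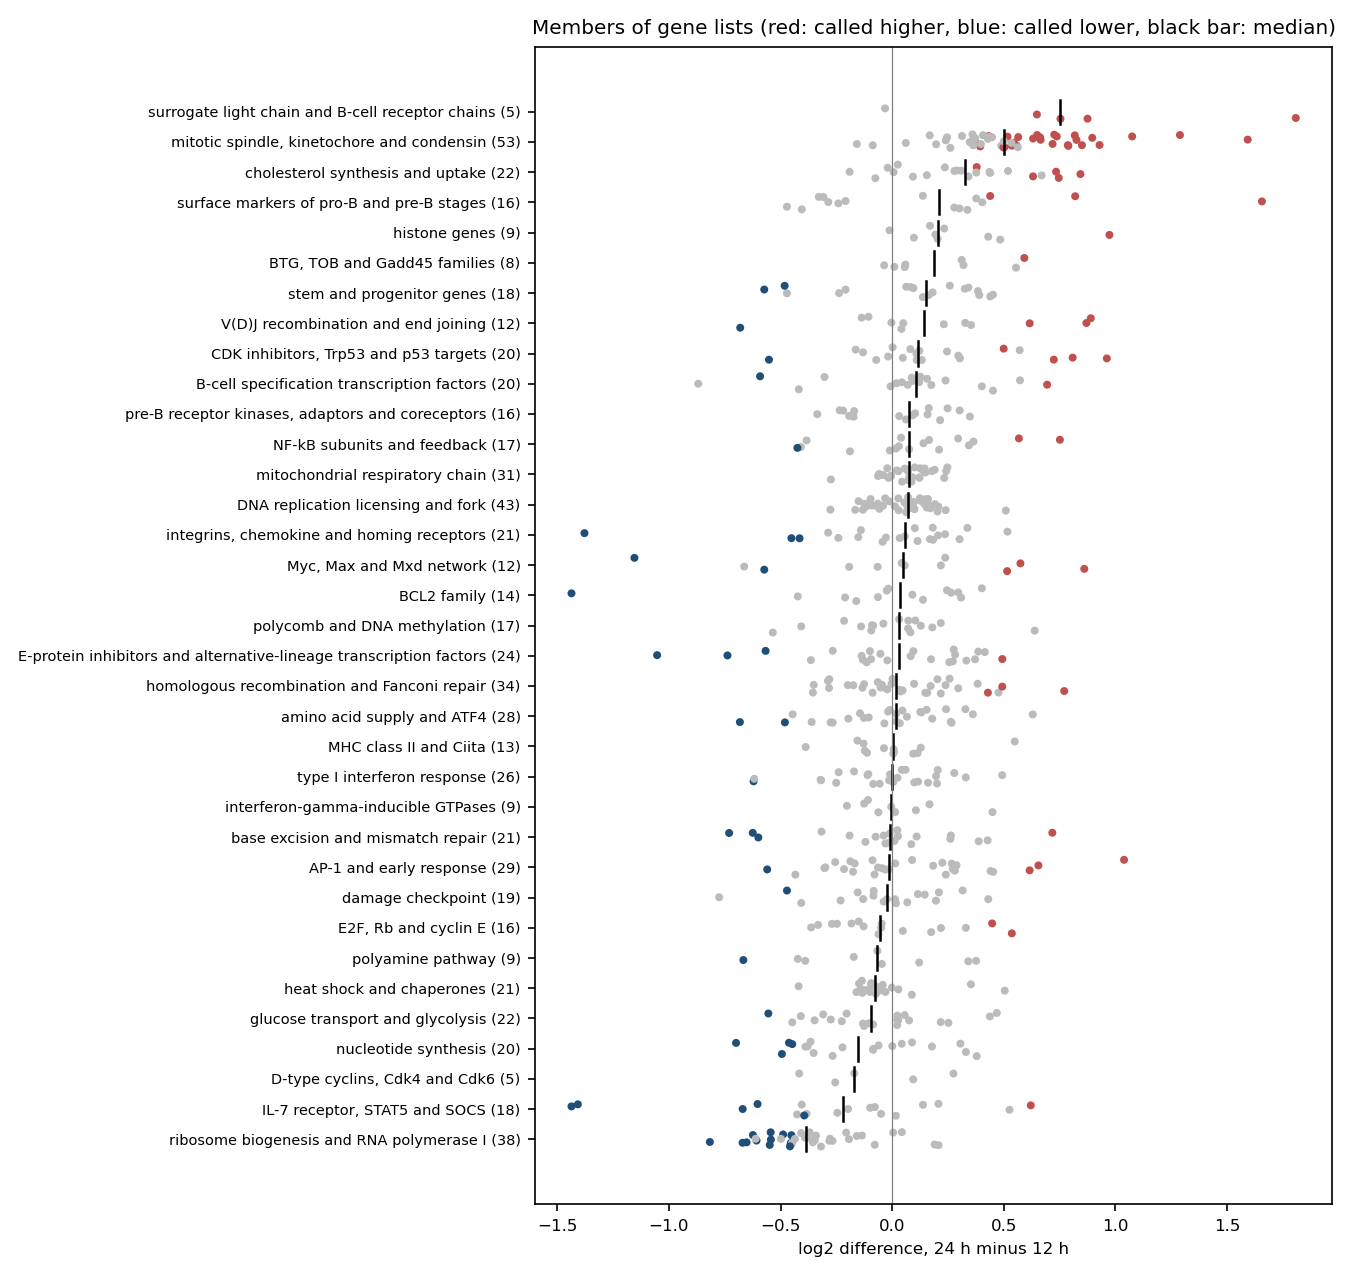
Each row is 1 gene list with its number of measured genes, each point 1 gene's log2 difference between 24 and 12 h, red where called higher, blue where called lower and grey where not called, and the black bar is the list's median (vertical jitter is for display). The surrogate light chain and receptor list (0.75) and the mitotic list (0.50) have the highest medians, and the ribosome list (-0.39) the lowest.

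Single genes with the largest rises came from no one list. Slc5a9, a sugar transporter of the sodium-coupled family, read 0.01 and 0.07 at 12 h and 2.66 and 2.75 at 24 h. The 6 earlier arrays ran from -0.78 to 0.07, with a called rise of 0.69 in the first 6 h. Between 12 and 24 h the rise of 2.66 ± 0.09 (SE), 6.34-fold, had the smallest adjusted p of the comparison (limma, 0.000121), with all 4 probe sets called. F13a1, the A chain of coagulation factor XIII, read -0.93 and -1.37 at 12 h and 1.11 and 0.93 at 24 h, below the 1.77 and 1.84 of 0 h. It rose by 2.16 ± 0.15 (SE), 4.48-fold, with a limma adjusted p of 0.00192. A930003A15Rik also fell in the first 6 h and then rose, from -0.97 and -1.29 to 1.08 and 0.97, a rise of 2.15 ± 0.13 (SE; limma adjusted p = 0.00141).

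Further rises were 3110040M04Rik by 1.68, Spata6 by 1.62, Capsl by 1.47, Morc1 by 1.45 and Dnajc12, a J-domain cochaperone, by 1.38. All 5 had fallen in the first 6 h, as had 64% of the genes called higher between 12 and 24 h and 16.6% of all genes. Mzb1, an endoplasmic reticulum chaperone of B cells that helps assemble immunoglobulin, read 0.07 and 0.20 at 12 h and 1.29 and 1.31 at 24 h. Its 6 earlier arrays lay between -0.19 and 0.20, so its rise of 1.16 ± 0.09 (SE; limma adjusted p = 0.00271) appeared after 12 h. Klf4, a zinc finger factor linked to quiescence, read -0.51 and -0.52 at 12 h and 0.53 and 0.51 at 24 h, and Klf2, its relative, rose by 0.62 ± 0.09 (SE; limma adjusted p = 0.0146). These belong to a list of 29 AP-1 and early response genes, of which 3 rose and 1 fell between 12 and 24 h. The shares over all genes were 2.55% and 1.72%. In the first 6 h 26 of the 29 had fallen, against 16.6% of all genes. H2az2, a histone variant, rose by 0.97 ± 0.09 (SE; limma adjusted p = 0.00362).

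The largest falls included genes of myeloid and other lineages, but the myeloid marker lists moved little. The median difference was -0.03 for monocytes, macrophages and dendritic cells and -0.05 for granulocytes and mast cells, against 0.02 over all genes. Wfdc17, a secreted protein of activated myeloid cells, read -0.49 and -0.40 at 12 h and -2.16 and -2.17 at 24 h. It fell at each time of the course and was lower by 1.72 (SE 0.111, 3.3-fold, limma adjusted p = 0.00141). Ccl3, a chemokine, also fell at each time, from 2.95 and 3.07 at 0 h to -0.95 and -1.03 at 12 h and -2.33 and -2.41 at 24 h. With Ebf1-Eng, Ccl3 was higher than with empty vector by 6.41 (limma adjusted p = 0.000201). Hbegf, a growth factor of the EGF family, read 0.08 and 0.11 at 12 h and -1.36 and -1.21 at 24 h, after 6 arrays between -0.19 and 0.11, and it too was higher with Ebf1-Eng, by 3.48 (limma adjusted p = 0.00721).

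Mpo, the myeloperoxidase of granulocyte precursors, read 0.21 and 0.11 at 12 h and -1.29 and -1.11 at 24 h, lower by 1.36 (SE 0.108, limma adjusted p = 0.00271). Ctr9, of the PAF1 transcription elongation complex, fell by 1.35 with 4 of 5 probe sets called, and Lrmda by 1.30 with 2 of 3. Ctnnd2, a catenin, fell by 1.37 on both probe sets. Dmd, dystrophin, Spopl, an adaptor of a ubiquitin ligase, and Mdn1, a ribosome assembly ATPase, fell by 1.60, 1.30 and 1.22, but only 1 of their 4, 3 and 3 probe sets was called, and with all probe sets averaged Mdn1 differed by -0.37 and was not called (limma adjusted p = 0.109).

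**Figure D4:**
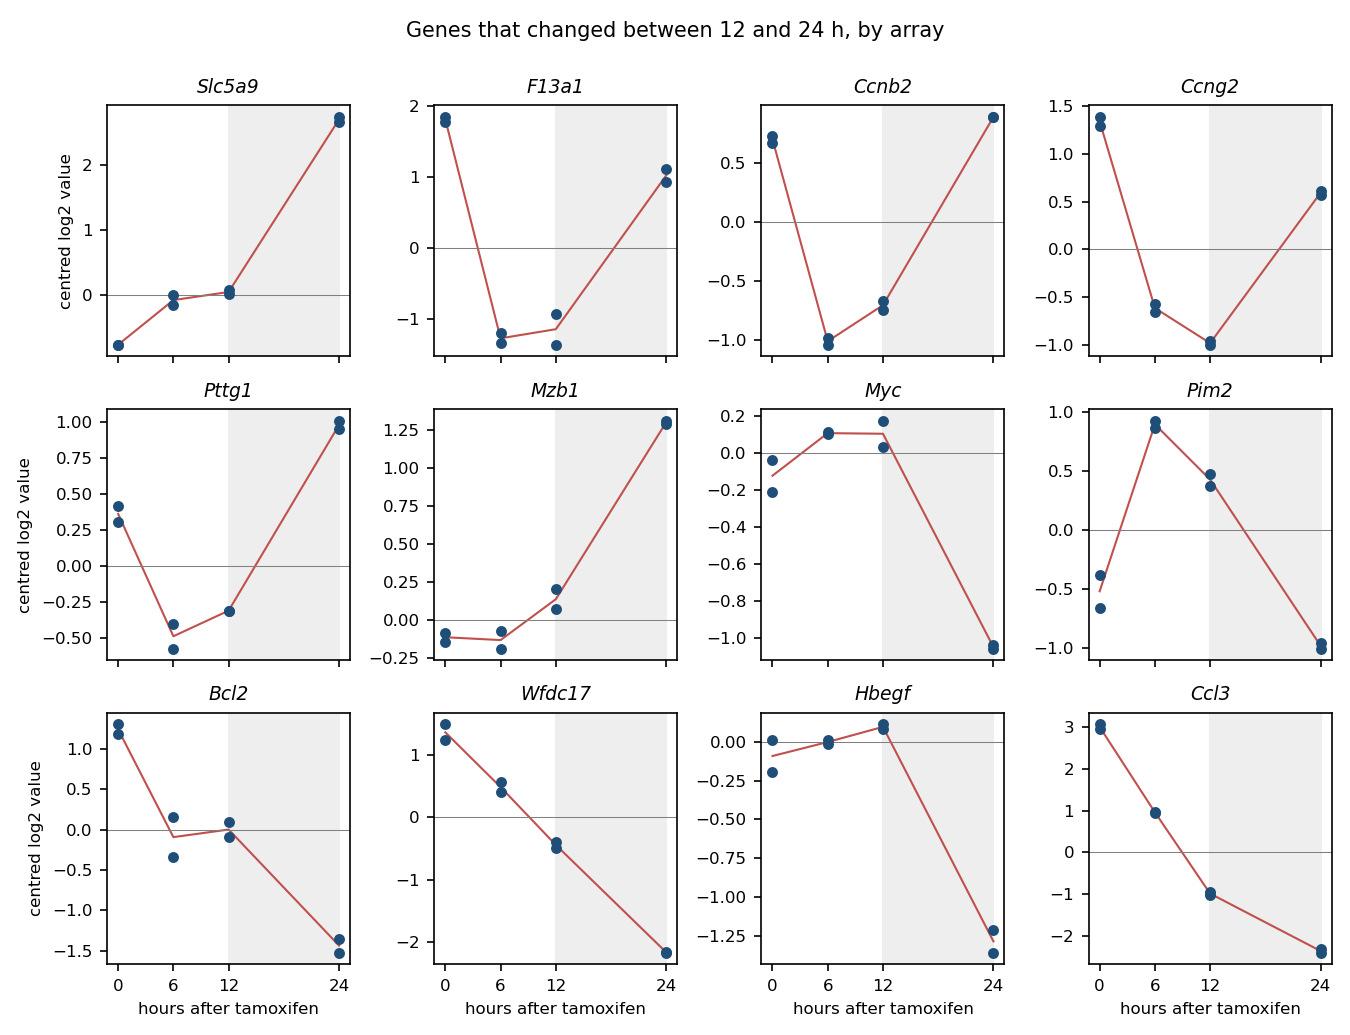
Each panel plots the centred log2 value of 1 gene on the 8 arrays (points, 2 per time) and the mean per time (line) against hours after tamoxifen, with 12 to 24 h shaded and a separate vertical scale per panel. Mzb1, Myc and Hbegf left their earlier range only at 24 h, while Slc5a9 had risen in the first 6 h and rose further after 12 h. F13a1, Ccnb2, Ccng2 and Pttg1 rose after low values at 6 and 12 h, and Wfdc17 and Ccl3 fell at each time.

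Transcription factors of other lineages gave 3 lower and 1 higher of 24, against 1.72% and 2.55% of all genes. Tox, a factor of T and innate lymphoid cells, read 0.05 and 0.01 at 12 h and -0.95 and -1.09 at 24 h, lower by 1.05 (SE 0.121, limma adjusted p = 0.00758). Tal1, of blood stem and erythroid cells, fell by 0.74 (SE 0.0868, limma adjusted p = 0.00836), and Zbtb16, the PLZF gene of innate lymphoid cells, by 0.57 (SE 0.113, limma adjusted p = 0.0401). Bcl11b, which commits T cells, was higher by 0.49 ± 0.08 (SE; limma adjusted p = 0.0255), on 1 of its 4 probe sets, and with these averaged it differed by 0.29 and was not called (limma adjusted p = 0.0982). Among 21 integrins, chemokine and homing receptors 3 fell, none rose and 12 were above 0, with a median of 0.06. Besides Ccl3, Itgb7 fell by 0.45 (SE 0.0893, limma adjusted p = 0.0398) and Itgal by 0.41 (SE 0.0855, limma adjusted p = 0.0448). With its 2 probe sets averaged Itgal differed by -0.20 and was not called (limma adjusted p = 0.321).

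Markers of cells other than B-cell progenitors were followed as lists, of which centred values show differences only. Over all genes 2.55% rose and 1.72% fell. Of 18 measured markers of monocytes, macrophages and dendritic cells, Mpeg1, Cybb and Tyrobp fell, none rose, and the mean over the list was -0.13 and -0.16 on the 12 h arrays and -0.25 and -0.23 on the 24 h arrays. Cybb was called on 1 of 3 probe sets, and with these averaged it differed by -0.25 and was not called (limma adjusted p = 0.357). Of 17 granulocyte and mast cell markers Mpo alone was called, and the list's mean was 0.04 and 0.01 at 12 h and -0.14 and -0.05 at 24 h. Of 19 markers of natural killer and innate lymphoid cells Nkg7 and Zbtb16 fell, and of 18 T-cell markers Cd247 and Bcl11b rose, Cd247 on 1 of 4 probe sets and with a difference of 0.26 and no call when these were averaged (limma adjusted p = 0.106). None of the 24 markers of OP9 stroma, fibroblasts and adipocytes was called by limma, 2 had an unadjusted p under 0.05, and the list's mean was -0.15 and -0.27 at 12 h and -0.38 and -0.11 at 24 h. No erythroid or megakaryocytic marker of 14 was called by limma either, with 1 at an unadjusted p under 0.05. The part of a change in the mix of cells in the results above was not tested.

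Set against the first 6 h, which share no array with this interval, most called genes moved back when all 4 arrays were used. Of the 464 genes that rose between 12 and 24 h, 297 (64.0%) had fallen between 0 and 6 h and 32 (6.9%) had risen, where over all genes 16.6% fell and 18.9% rose in those 6 h. Of the 313 that fell, 207 (66.1%) had risen and 57 (18.2%) had fallen. This share of fallen genes did not hold with fewer arrays: without 12 h array 1, 12 h array 2, 24 h array 1 or 24 h array 2 it was 35.7%, 30.8%, 25.9% and 36.4%, of 14, 13, 27 and 11 genes called lower. The share of risen genes that had fallen before was 63.2%, 67.4%, 63.2% and 51.7% in these fits. From the other side, the 297 were 9.83% of the 3021 genes that fell in the first 6 h and the 207 were 6.03% of the 3435 that rose. Across all 18193 genes, which are not independent replicates, the correlation of the 2 differences was -0.29. The representative probe set was chosen by its variance over all 8 arrays, to which the first 6 h contributed most; with all probe sets of a gene averaged the shares were 67.3% and 74.2%.

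**Figure D5:**
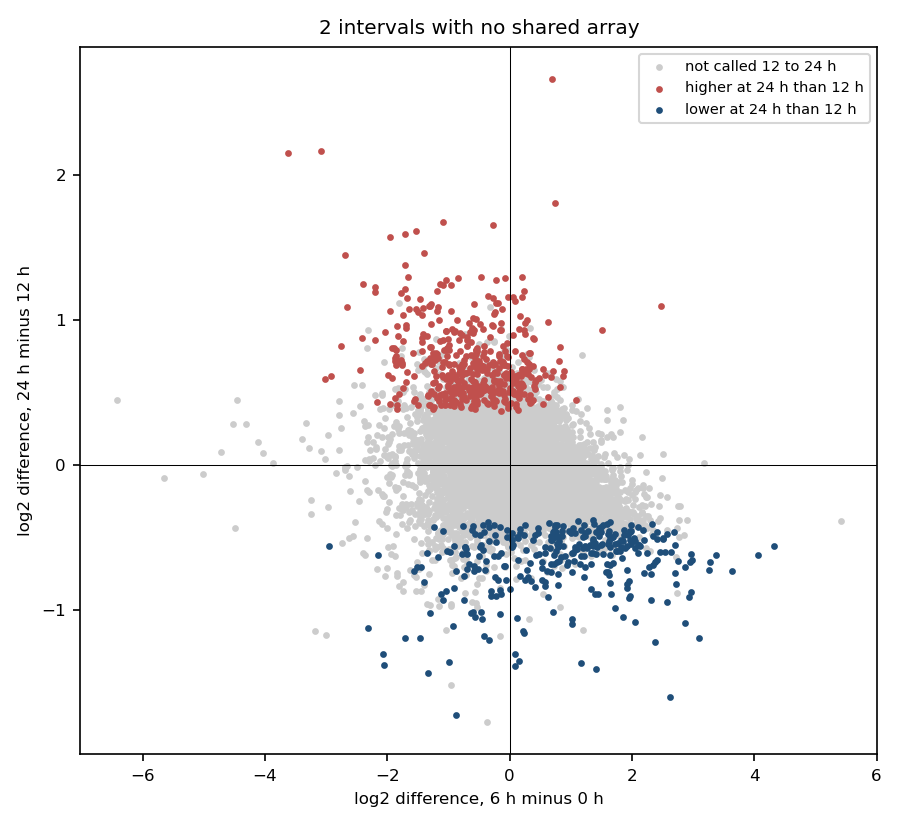
Each point is 1 gene, with its log2 difference between 6 and 0 h on the horizontal axis and between 24 and 12 h on the vertical axis, intervals that share no array, red where called higher and blue where called lower at 24 h. Most red points lie left of 0 (297 of 464 had fallen) and most blue points right of 0 (207 of 313 had risen).

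Moving back did not always mean an intermediate value. For 199 of the 464 genes that rose (42.9%) the 24 h mean lay between the 0 h and the 12 h mean, and for 237 (51.1%) both 24 h arrays lay above all 6 earlier arrays. For 180 of the 313 genes that fell (57.5%) the 24 h mean lay between, and for 119 (38.0%) both 24 h arrays lay below all earlier ones. Over all genes the 24 h mean lay between the other 2 means for 46.3%, so the intermediate shares are near the background. Both 24 h arrays lay above the other 6 for 1749 of all 18193 genes and below them for 1061, in either direction 15.4%. The called genes were selected for a difference between 24 and 12 h. Their larger shares beyond the earlier arrays therefore follow in part from the call itself. Igll1, Cd24a, Slc5a9, Mzb1 and Ccnb2 were of the first extreme kind and Myc, Pim2, Bcl2 and Wfdc17 of the second, while Rag1, F13a1 and Ccng2 were intermediate.

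The separate experiment with Ebf1-Eng shares no array with the time course. Across all 18193 genes the correlation of its differences with those between 12 and 24 h was 5.48e-05, so no shared or opposite trend held over all genes. The genes that rose between 12 and 24 h held 98 (21.1%) that were lower and 60 (12.9%) that were higher with Ebf1-Eng than with empty vector, where over all genes 5.27% were lower and 6.85% higher. The 98 were 10.2% of all genes lower with Ebf1-Eng. They included the 24 mitotic genes and Igll1, Vpreb1, Cd79a, Cd79b, Foxo1, Mzb1 and Btg2. Among the 60 that were higher with Ebf1-Eng were Mxd1 (by 1.97), Cd93 (1.53), Cdkn2c (1.15), Cdkn2d (0.59) and Fdps (0.54). Of the genes that fell, 34 (10.9%) were higher with Ebf1-Eng and 18 (5.75%) lower, among them Irf8 and Ltb. For Igll1 the difference with Ebf1-Eng was -4.14 (limma adjusted p = 0.00059) and for Ccnb2 -1.12 (limma adjusted p = 0.00504), while for Slc5a9 and F13a1 it was 0.05 and 0.10 and for Cd24a -0.34, none of the last 3 called.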

How the data were processed

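RNA of 8 time-course samples and of 6 samples of the separate Ebf1-Eng experiment was measured on Affymetrix 3' expression arrays. The authors deposited log2 values, and the submitters' processing notes name RMA. The deposited log2 values are centred on each probe set's median over the 8 arrays of the experiment, as the values show, and the log base is taken as 2. Of 45101 probe sets, 34945 carried 1 gene symbol in GEO's platform annotation (34741 matched to RefSeq), 932 several, 9160 none and 64 were controls, and the first were tested. A linear model of 4 time groups was fitted on 8 arrays with limma 3.58.1 and its eBayes step (R 4.3.3, residual df 4, prior df 3.68) and p-values were adjusted by Benjamini-Hochberg over all tested probe sets. The number of arrays limits the precision. No level can be read, so no filter on low values was used.

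The named genes were a fixed set of B-lineage, cycle and survival genes, the 12 largest rises and 12 largest falls among called genes without overlap, and up to 3 called members of each of 42 gene lists. Other genes named have values in a list or were picked after their values were seen. The members and lists were chosen with earlier results of these data known. Promoters (250 bases before to 50 after the start, RefSeq, GRCm38.p6) matched 14452 of 18193 genes. Genes without a probe set of 1 symbol were not analysed here. Alternatives tried were averaging a gene's probe sets, the arrays that give the spread, a replicate block, median centring, robust eBayes, a filter that kept the more variable probe sets, adjustment over 1 probe set per gene, and leaving out each of the 4 arrays. The test was checked on simulated data.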

Additional observations from a re-analysis of the deposited data

Results flagged for a closer look

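The step from 12 to 24 h was set against the step from 6 to 12 h, and the difference between both was tested with limma. It passed an adjusted p of 0.05 for 95 genes (0.522%), 67 with the later step higher and 28 with it lower. Both steps use the 12 h arrays and they last 12 and 6 h. Among named genes the later step was higher for Slc5a9 (by 2.54 on the log2 scale), F13a1 (2.04), Ccng2 (1.95), Dnajc12 (1.73), Trp53inp1 (1.71) and Spata6 (1.49). Smaller positive differences were those of the cyclin Ccnb2 (1.29), of Btg2 (1.25), Klf2 (1.13), the securin gene Pttg1 (1.11) and the histone gene H2az2 (0.99). Negative differences were those of Mpo (-1.71), Lrmda (-1.53), Hbegf (-1.48), Myc (-1.15), Rrp1b (-1.09) and Shmt1 (-1.04). Without any 1 of the 4 arrays of 12 and 24 h the limma count was 0, with between 1804 and 2735 genes at an unadjusted p under 0.05, and with the replicate block it was 1.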

How the results depend on the processing

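No alternative reversed the direction of a named called gene, and the other called genes were not followed one by one. Of the gene lists, base excision and mismatch repair went from 1 higher and 3 lower to 2 higher and 1 lower with probe sets averaged, and the Myc, Max and Mxd network from 3 higher and 2 lower to 0 higher and 1 lower without 1 array. Surface markers of the pro-B and pre-B stages went from 3 higher and none lower to 5 higher and 2 lower with probe sets averaged. Replicate differences showed no strong shared shift between times, with correlations from -0.23 to 0.122. These correlations cannot show whether arrays with the same replicate number came from the same culture. With the replicate block 756 probe sets and 492 genes were called (287 higher, 205 lower, 468 of them among the 777), 379 were also called between 0 and 6 h, and 1 gene passed the test between steps. With the spread from the 4 arrays alone, 786 probe sets were called and 138 genes were shared with Ebf1-Eng. Averaging probe sets gave 54 genes of at least 2-fold and 157 between steps, the 6 later arrays gave 3 between steps and adjustment over 1 probe set per gene gave 31. The cause of these shifts was not tested, beyond fewer arrays or degrees of freedom by construction.

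Without 1 of the 4 arrays, 53 to 121 probe sets and 40 to 84 genes were called (29 to 57 higher, 11 to 27 lower), 38 to 70 of at least 2-fold, 0 between steps by limma, 24 to 58 also between 0 and 6 h and 11 to 23 also with Ebf1-Eng. The share of called genes that rose was 67.9% to 76.8% in these fits, against 57.7% to 60% under the other alternatives. In the fits that left out 1 array, 25.9% to 36.4% of the genes called lower had risen in the first 6 h, against 66.1% with all arrays. The overlaps were not run with 4 or 6 arrays for the first 6 h. Centred values do not show signal over background, so probe sets near background could not be set apart.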

Other observations

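DNA repair genes moved in small numbers and both directions. The counts in the lists that follow stand beside 2.55% higher and 1.72% lower over all genes. Of 34 genes of homologous recombination and Fanconi repair, Rad51c, a strand-exchange paralog, rose by 0.77, Brip1, a helicase, by 0.49 and Eme1, part of a junction nuclease, by 0.43, and none fell, with a list median of 0.02. Of 21 genes of base excision and mismatch repair, the glycosylase Neil1 rose by 0.72, while the mismatch protein Msh3 fell by 0.73, the polymerase Polb by 0.62 and the uracil glycosylase Ung by 0.60. Msh3 and Polb were each called on 1 of 4 probe sets, and with these averaged they differed by -0.08 and -0.16 and were not called (limma adjusted p = 0.741 and 0.35). The checkpoint kinase Atr fell by 0.47 as 1 of 19 damage checkpoint genes. Of 16 E2F, Rb and cyclin E genes, Rbl2 rose by 0.54 and E2f2 by 0.45. The NF-kB genes Tnfaip3, a feedback inhibitor, and Rel rose by 0.75 and 0.57 while Ltb, lymphotoxin beta, fell by 0.42, of 17 measured. Of 26 type I interferon response genes Rsad2 alone fell, by 0.62, with an averaged difference of -0.61 that was not called (limma adjusted p = 0.0601). No gene of MHC class II (13 measured), of the interferon-gamma-inducible GTPases (9) or of polycomb and DNA methylation (17) was called by limma, with 2, 1 and 3 at an unadjusted p under 0.05.

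Other genes that changed at least 2-fold were picked after their values were seen. Ets1, a lymphoid transcription factor, read -0.73 and -0.44 at 12 h and 0.49 and 0.44 at 24 h, and all 4 of its probe sets were called higher. Grb10, an adaptor of growth factor receptors, read 0.03 and 0.17 at 12 h and 1.28 and 1.23 at 24 h, above all earlier arrays, on 1 of 3 probe sets. Plek, pleckstrin, read -0.47 and -0.38 at 12 h and -1.54 and -1.72 at 24 h. Etv5, an Ets factor, read 0.76 and 0.71 at 12 h and -0.37 and -0.26 at 24 h. Of the 160 genes with at least 2 called probe sets, Daam1 alone had calls in both directions.

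Probe sets without a gene symbol differed in balance from those with one. In a fit of their own 185 of 9160 were called, 163 of them lower (88.1%), where 473 of the 1202 called probe sets with 1 symbol were lower (39.4%).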
